A study of Ovis aries with 12 samples.

Results

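The probes described here are the anonymous candidates of a miRNA array of the sheep heart that read above background. Their names give the letters PC, an arm (5p or 3p) and a number, and no known miRNA. Of 907 such probes, 99 read at least 32 normalised units on at least 3 of the 12 arrays, which is 10.92 % of them, while 1023 of the 2184 probes named after a miRNA (46.84 %) read as high. The 99 candidates were selected on their own levels on these arrays, so the levels below are a description. The table holds 3091 probes without the controls.

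Total RNA of the left ventricle came from 12 Merino sheep of normal development, with no treatment named in the labels. Each age had 3 animals, and the ages were F91 and F140, 91 and 140 days of gestation, and P5 and P173, 5 and 173 days after birth. For F91 the labels also give 90 days, and for F140 they give 141 days. F91 replicate 3 was male and all other animals were female. All P5 lambs and 1 F140 fetus, replicate 2, came from twin pregnancies, so that twin birth and age cannot be told apart at P5. The names of the P5 replicate 1 and 2 arrays differ in their last letter alone, and whether these lambs are co-twins is not stated. Each animal had a single array, read in 1 colour, with 3 spots for each candidate. In tissue RNA, fewer cells of a type and less RNA per cell cannot be told apart.

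miRNA are short single-stranded RNA that are cut from the 5p or the 3p arm of a hairpin precursor. A miRNA pairs with messenger RNA chiefly through its seed, bases 2 to 8 from the 5′ end, and lowers the translation or the stability of that messenger. In the heart, miRNA of muscle such as miR-1 and miR-133a act during development and in the growth of cardiomyocytes. Other short RNA, such as fragments of transfer RNA, can bind to the probes of an array in the same way, and what the candidates are was not determined here.

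The labelled tissue was checked against heart muscle miRNA. miR-133a read 8750 to 17987 units over the 12 arrays, miR-133b read 8343 to 17547, miR-1 read 384 to 20106 and miR-499 read 274 to 9350. miR-208a stayed at 27 units or lower and miR-208b at 73 or lower. Of the miRNA of other organs, those of pancreas stayed at 7 units or lower, miR-9-3p of brain at 16 or lower and miR-122 of liver at 66 or lower. miR-122 averaged 49.3 units at P5, above the threshold of 32 units. No probe was found under the exact name of miR-124 of brain. Between 73 and 87 of the candidates read at least 32 units on an array. The median coefficient of variation over the 3 spots of a candidate was 24.8 % on F91 replicate 1 and 33.8 % on F140 replicate 1, and it was 5.81 to 13.3 % on the other arrays.

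The target sequences on the array are shown for the candidates that the results turn on. The first set holds bright or age-dependent candidates that had no run of 14 or more bases in common with any named probe or with another candidate. The capitals mark bases 2 to 8, where a seed would lie if the RNA were a miRNA.
PC-5p-51320_64: cUAGAGGAaguaaaagucg
PC-3p-62940_51: cCUGGCGGagcgcugagaaga
PC-3p-39441_87: uCCCUGCCcuuuguacaca
PC-3p-147515_18: uAGCCAAAggaggauuua
PC-5p-157221_17: gGAUGGUUuagugaggc
PC-5p-13703_301: cAGGGAAUuguuuaaguagaacuucagc
PC-5p-51939_63: cUAAACCCcgccuguuua
PC-3p-29784_121: uAUAGCUUcuuccuugac
PC-3p-27869_130: cUAUGCCCccaugucuaa
PC-5p-53292_62: cAGACCAAgagccuacug

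The second set holds candidates that shared a long run of bases with a probe named after a miRNA. The capitals mark the shared run.
PC-5p-70828_44: UGAGGUAGUAGGUUGUAaau
PC-5p-9731_453: UAGCAGCACAGAAAUGUUGGu
PC-3p-8998_497: ucAUCCCACUUCUGACACCA
PC-5p-87690_34: UGAUAAUACAACCUGAUAAGUGa
PC-3p-93436_32: ucguAACCAUCCUCUGCUguuu
PC-3p-213947_12: caguCAGUGGCUAAGUUCUGa
PC-3p-166313_16: AAGCUGCCAGUUGAAaggu
PC-3p-25371_145: CGGCUCCUGGCUGGCUCGCCg
PC-5p-106928_27: cAGAGAGAAAGGCAGUUCCUGA
PC-5p-120307_24: UGGCUCAGUUCAGCAGGcg

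The named probes of the second set carried let-7a-5p (a shared run of 17 bases), miR-195 (20 bases), miR-2478 (18 bases), miR-374c-5p (22 bases), miR-6412 (14 bases), miR-27b (16 bases), miR-22-3p (15 bases), miR-1386 (20 bases), miR-185 (21 bases) and miR-24 (17 bases), in the order of the lines. Several of these named probes are themselves variants in length or by a base of the miRNA in their name. Of the 99 candidates, 25 shared a run of at least 14 bases with a named probe, 17 shared a run with another candidate and 33 did either, which left 66 with no such run. With runs of at least 16 bases, 28 did either, and with at least 18 bases 17 did. In 6 candidates a sequence held another or lay within it, 4 of them with a named probe and 2 with each other. Neighbours of this kind can be read by the same RNA, so that their levels are not independent.

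The seed of 15 candidates was also the seed of a miRNA that the array carries under its exact name. PC-5p-70828_44 and PC-5p-45594_73 had the seed of the let-7 family, which in animals marks differentiated tissue. PC-5p-9731_453 had the seed of the miR-15 family, whose members restrain the cell cycle, and PC-5p-120307_24 and PC-3p-222287_11 had that of miR-24-3p. Among the 20 brightest candidates, 16 had no run of 14 bases with a named probe, and the array named a relative of this kind for 4. Of all 99 candidates, 25 had such a relative, and the difference between these shares was not tested. PC-5p-178854_15, among the 16 without such a run, differs from a let-7a-5p probe by 1 edit.

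A further set was drawn for its 3′ end. Mature transfer RNA end in the bases CCA, which are added after transcription, and 8 of the 99 candidates (8.08 %) ended in these letters, against 2.98 % of all 3091 probes and 3.32 % of the named probes that passed the same threshold. Of the anonymous probes below the threshold, 2.35 % did so. The letters were searched on the target strand at the 3′ end alone, and a match is a description of the sequence and no identification. The capitals mark the last 3 bases.
PC-3p-48834_68: uccucucuacggggagCCA
PC-3p-7524_614: guucgauucccggucagggaaCCA
PC-5p-3169_1689: ccuucugaucgaggcCCA
PC-5p-105598_28: aacugcuaauucuaugcCCA
PC-5p-50281_66: gcuaaggggucaggggagCCA

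PC-5p-3169_1689 held the whole of PC-5p-1468_4111 and was longer by its last base. Over the 12 arrays it read 435 to 4420 units, and PC-5p-1468_4111 read 699 to 3301. PC-3p-8998_497, shown in the second set, also ended in CCA. The other members that did so, PC-3p-181901_14 and PC-3p-174854_15, were dim, with means of 76.8 and 17.0 units.

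The candidates had a median GC content of 50.0 % (mean 51.1 ± 12.9 %, SD, n = 99), against 48.0 % in the named probes that passed the threshold and 44.4 % in the anonymous probes that did not. Their GC content ranged between 15.8 % and 85.0 %. The median length was 20 bases, against 21 in those named probes and 20 in the dim anonymous probes, with candidates of 17 to 28 bases. The 5p arm was named in 50 and the 3p arm in 49. A base U, the usual first base of miRNA, opened 31 candidates (31.3 %), close to the share over all probes (32.2 %).

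The level of the candidates spanned 3 orders of magnitude. The mean over the 12 arrays was 21384 units in the brightest and 17.0 in the dimmest, with a median of 158 units, and 59 candidates had a mean of at least 100 units and 23 one of at least 1000. On all 12 arrays, 51 read at least 32 units, and 11 did so on exactly 3 arrays. Of these, PC-3p-174854_15 and PC-5p-225739_11 passed through the P5 arrays alone and PC-5p-87690_34 through the F140 arrays alone. Just inside the threshold, the lowest of the 3 brightest arrays read 32 units for PC-3p-228246_11, 33 for PC-5p-31052_115 and 34 for PC-3p-20052_192. Just outside, it read 31 for PC-3p-100585_29 and 30 for each of PC-5p-162961_16 and PC-3p-27824_130. A further 31 anonymous probes reached 32 units on 1 or 2 arrays, and 777 on none.

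**Figure D1:**
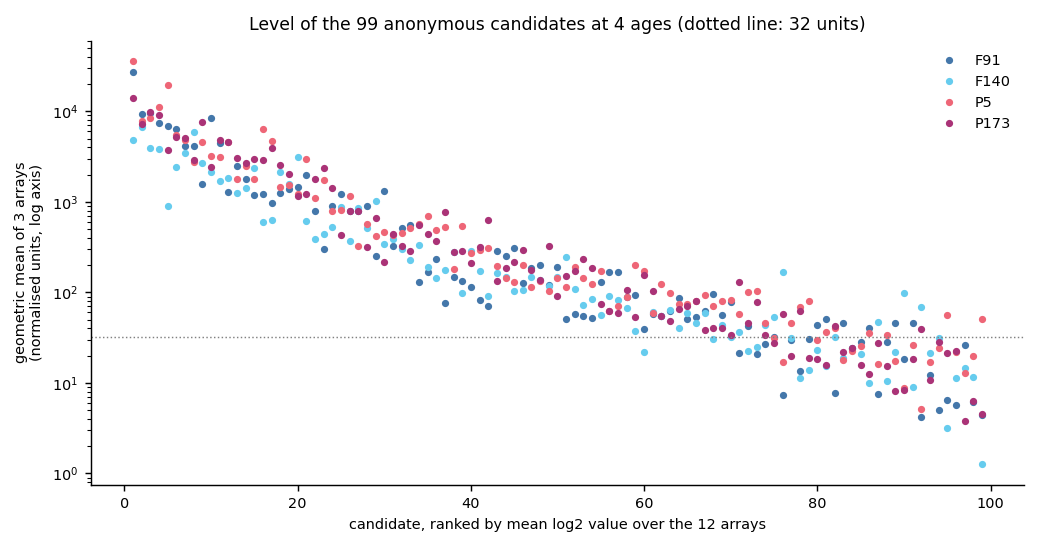
Level of each of the 99 candidates, ranked by its mean log2 value (x axis), as the geometric mean of the 3 arrays of an age in normalised units on a log axis (y axis), with a colour for each age. The dotted line stands at 32 units, and the brightest candidate, PC-5p-51320_64, is lower at F140 than at the other ages.

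The brightest candidate was PC-5p-51320_64, for which the array names no relative. It read 16106, 27781 and 43732 units at F91, 2400, 4917 and 9233 at F140, 31216, 31936 and 47039 at P5 and 12695, 14854 and 14701 at P173. The F140 arrays were all below those of every other age, and the P5 arrays were all above those of P173. PC-5p-70828_44, the let-7 relative, was second by its mean log2 value and varied little, with means of 9758 ± 3392 (F91), 6741 ± 1017 (F140), 7860 ± 614 (P5) and 7362 ± 1436 units (P173, SD, n = 3 each). It did not pass the test over the ages (limma adjusted p = 0.7). PC-3p-39441_87 averaged 10472 (F91), 4125 (F140), 8546 (P5) and 10531 units (P173), and it too did not pass (limma adjusted p = 0.11).

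Some bright candidates varied widely between animals of an age. PC-3p-48834_68, which ends in CCA, read 6191, 2971 and 33806 units at F91, where the high value is that of replicate 3, the male fetus. That array also had the highest slope on GC content of the 12 (0.55 per 10 % of GC). The slope is that of the deviation of each log2 value from the mean of its probe over the 12 arrays. The array had the fewest probes at 32 units or more (906), and the candidate has 63.2 % GC. The part of sex, GC content or array in this value was not tested. At F140 it read 2117, 922 and 5141, at P5 2851, 3234 and 3508 and at P173 2300, 2090 and 3009. Apart from F91 replicate 3 its arrays lay within 922 to 6191 units. PC-3p-7524_614 read 1358, 4524 and 12001 units at F91, and the arrays of the other ages, at 2206 to 6196, lay between these. PC-3p-185797_14 read 204, 4307 and 2502 at F91 and averaged 1925 ± 612 (F140), 4676 ± 1166 (P5) and 4878 ± 1816 units (P173, SD, n = 3 each). None of the 3 passed the F-test (limma adjusted p = 0.27, 0.89 and 0.33).

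The other candidates among the 15 brightest that are named in no comparison below were PC-5p-26253_139, PC-5p-178854_15, PC-5p-26632_137 and PC-3p-226501_11. PC-5p-178854_15 differs from a let-7a-5p probe by 1 edit but starts a base later than let-7a-5p, so that its bases 2 to 8 are those of miR-196a and miR-196b and not those of let-7. It averaged 4397 (F91), 6111 (F140), 2855 (P5) and 3012 units (P173), and its P5 arrays lay below all F140 arrays. PC-5p-26253_139 averaged 7024 (F91), 2790 (F140), 5527 (P5) and 5484 units (P173). PC-5p-26632_137 averaged 4915 (F91), 1953 (F140), 3247 (P5) and 5004 units (P173). PC-3p-226501_11 ranged over 804 to 8233 units at F91 alone. None of them passed the F-test (limma adjusted p = 0.19 to 0.64).

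The 99 candidates together held 6.89, 9.04 and 15.4 % of the summed units of the F91 arrays, 4.19, 4.44 and 6.55 % at F140, 10.3, 9.46 and 13.1 % at P5 and 7.49, 10.2 and 8.10 % at P173. All F140 arrays were below all arrays of the other ages. Without PC-5p-51320_64, which alone held 2.57 ± 0.603 % at P5 and 0.389 ± 0.243 % at F140 (SD, n = 3 each), the rest held 8.28 ± 3.40 % (F91), 4.67 ± 1.06 % (F140), 8.39 ± 1.31 % (P5) and 7.59 ± 1.35 % (P173). F140 and F91 then overlapped, as F140 replicate 3 was at 5.90 % and F91 replicate 1 at 5.69 %. F140 was the age with the lowest mean log2 value for 42 candidates (42.4 %), against 19.5 % of the named probes that passed the threshold. P5 was the age with the highest mean log2 value for 32 candidates (32.3 %), against 25.0 % of those named probes.

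**Figure D2:**
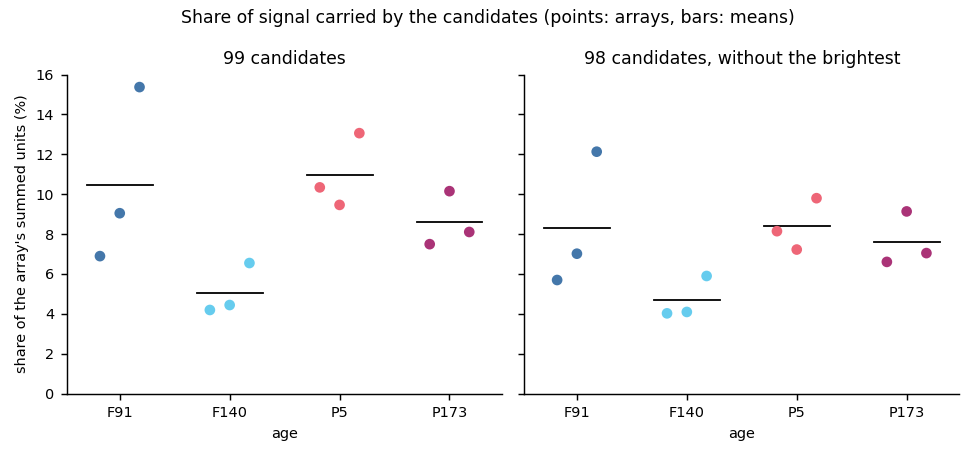
Share of the summed normalised units of each array (y axis, %) carried by the 99 candidates (left) and by the same set without PC-5p-51320_64 (right), with a point for each array and a bar at the mean of each age (x axis). The F140 arrays lie at 4.19 to 6.55 % on the left, below the arrays of the other ages, and overlap with F91 on the right.

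Tests were run with limma on log2(value + 0.1) over all 12 arrays and 3091 probes, so that a change of 1 is a doubling and changes of probes near 0 depend on the 0.1 added. A probe passed at a Benjamini-Hochberg adjusted p of at most 0.05, and every adjusted p below is limma's. An age with every array under 32 units is called not above background. Its fold is then a bound (at least N-fold), the geometric mean of the brighter age over 32 units. The contrasts share arrays, as each age stands in 2 of them, and are not independent of each other.

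The F-test over the 4 ages called 17 of the 99 candidates (17.2 %), where the share over all 3091 probes was 8.7 % and that over the named probes that passed the threshold was 23 %. Of the 808 dim anonymous probes 2 were called. The differences between these shares were not tested. Of the 17, 10 were among the 51 that read at least 32 units on every array. PC-5p-225739_11 and PC-5p-87690_34, also among the 17, had entered the set through their bright age. PC-3p-93436_32, another of the 17, would not have entered it without its F140 arrays. At an unadjusted p of at most 0.05 there were 40 candidates, and the share of all probes at that p was not counted. The F-test call held without any single array for 10 of the 17 and was lost without some for PC-3p-8998_497 (P5 replicate 1, adjusted p = 0.0501) and PC-5p-195778_13 (F91 replicate 2 or 3 or P173 replicate 1, 0.0514 to 0.063). PC-3p-93436_32, PC-5p-87690_34, PC-3p-147515_18, PC-3p-25371_145 and PC-5p-225739_11 each lost it without any of 7 to 9 arrays (adjusted p = 0.0508 to 0.191), F91 replicate 2 and F140 replicates 1 and 2 among them each time. A total of 22 candidates passed the F-test or any of the 4 contrasts. Among these 22 the brightest age, by mean log2 value, was P5 for 8, F140 for 6, P173 for 6 and F91 for 2.

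**Figure D3:**
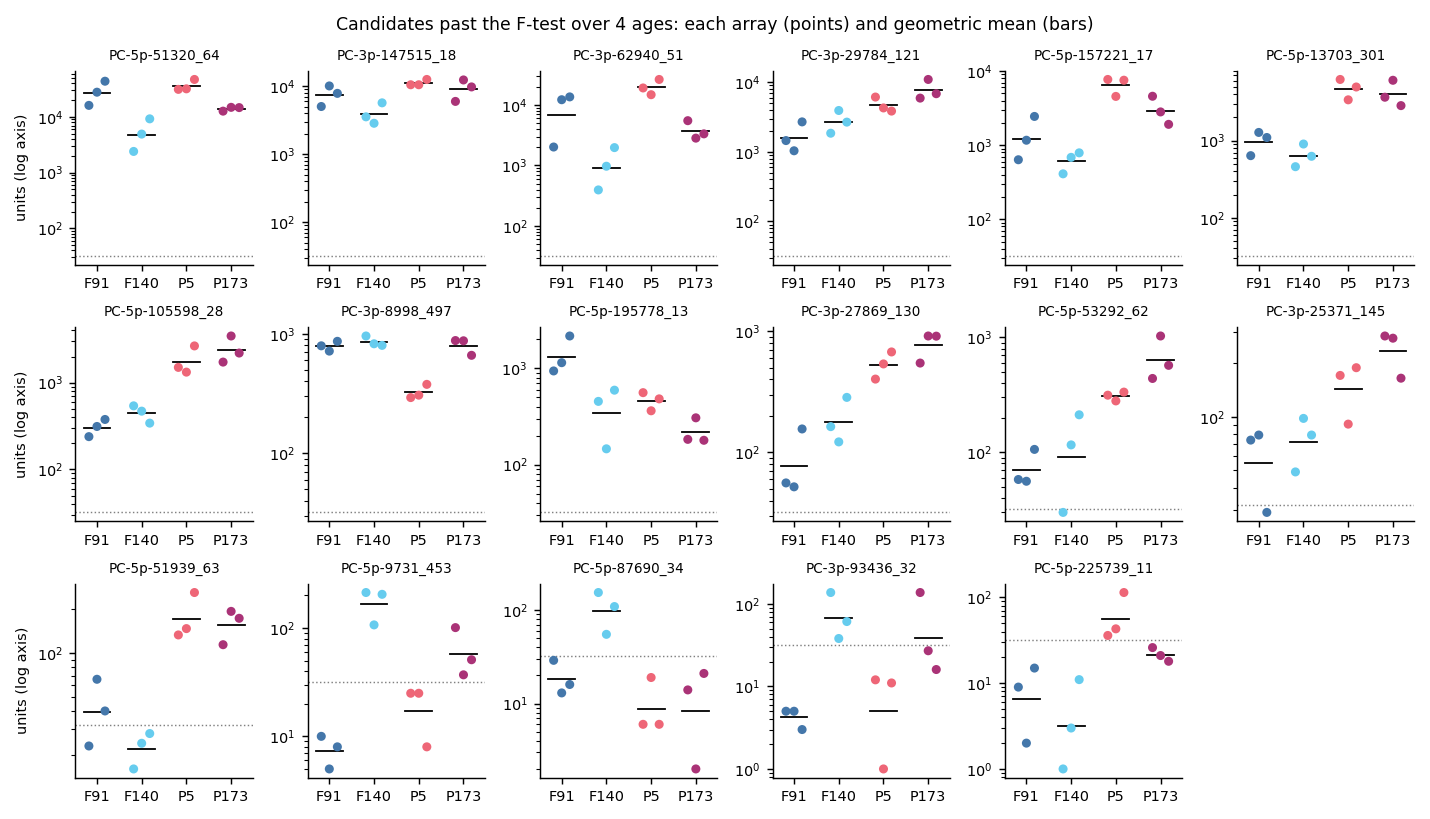
Normalised units (y axis, log) of the 17 candidates past the F-test, by age (x axis), with a point for each array, a bar at the geometric mean of 3 arrays and a dotted line at 32 units; values under 1 unit are drawn at 1. PC-5p-105598_28 and PC-3p-27869_130 are higher on every postnatal than on every fetal array, and PC-3p-8998_497 is lower at P5 than at the other ages.

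Between F91 and P173, the ends of the series, 12 candidates passed (12.1 %), 10 of them higher and 2 lower at P173. Over all probes 6.76 % passed, 3.24 % higher and 3.53 % lower, and over the named probes that passed the threshold 18.4 % did (8.31 % higher, 10.1 % lower). The median log2 change was 0.04 over the candidates and 0.01 over all probes. The clearest change was that of PC-5p-105598_28, a candidate that ends in CCA and has no named relative. It read 1728, 3454 and 2197 units at P173, against 239, 313 and 377 at F91, a log2 change of 2.95 ± 0.36 (SE, adjusted p = 0.00012). The P5 arrays read 1324 to 2654 and the F140 arrays 342 to 541, so that all postnatal arrays were above all fetal ones.

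PC-3p-27869_130 had the same order of ages. It read 545, 911 and 908 units at P173, against 56, 52 and 156 at F91 (log2 change 3.32 ± 0.46, adjusted p = 0.00042). The P5 arrays, at 402 to 673, lay above the F140 arrays, at 122 to 284. PC-5p-53292_62 read 439, 1028 and 571 units at P173, against 58, 56 and 106 at F91 (log2 change 3.18 ± 0.59, adjusted p = 0.0036). Its P5 arrays were close together, at 280 to 334. PC-3p-29784_121 was much brighter, at 5901, 10933 and 6827 units at P173, against 1449, 1034 and 2688 at F91 (log2 change 2.26 ± 0.39, adjusted p = 0.0019). Its means were 1724 (F91), 2811 (F140), 4738 (P5) and 7887 units (P173), and none of the contrasts between neighbouring ages passed. Each of these calls held when any single array was left out, with adjusted p of at most 0.0287.

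PC-5p-13703_301, the longest candidate named here, was higher at both postnatal ages. It read 3652, 6057 and 2843 units at P173, against a mean of 1004 ± 329 units at F91 (SD, n = 3), whose highest array was at 1276 (log2 change 2.05 ± 0.38, adjusted p = 0.0036), and the call held without any single array. PC-5p-51939_63 read 114, 193 and 173 units at P173, against 23, 66 and 40 at F91 (log2 change 1.99 ± 0.48, adjusted p = 0.023). That call was lost without F91 replicate 1, P173 replicate 2 or P173 replicate 3 (adjusted p = 0.0565 to 0.0827). PC-5p-15261_264 averaged 557.3 ± 113.2 units at P173, against 178 ± 172 at F91 (SD, n = 3 each), where the male fetus read 375 and the females 95 and 63. Its call (log2 change 2.07 ± 0.54, adjusted p = 0.03) was lost without any of 7 arrays, namely F91 replicates 1 and 2, P5 replicates 1 and 2 and P173 replicates 1, 2 and 3 (adjusted p = 0.0504 to 0.139).

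The other 3 candidates that were higher at P173 than at F91 were relatives of named miRNA. PC-3p-166313_16, which shares 15 bases with miR-22-3p, a miRNA enriched in striated muscle, read 81, 144 and 191 units at P173, against 30, 21 and 15 at F91. F91 was not above background, and P173 was at least 4.08-fold higher (adjusted p = 0.016). The call was lost without F91 replicate 2 or 3 or P173 replicate 2 or 3 (adjusted p = 0.0504 to 0.0661). PC-3p-25371_145, which shares 20 bases with a probe for a variant of miR-1386 and is rich in GC (81.0 %), read 285, 277 and 165 units at P173, against 74, 79 and 29 at F91 (log2 change 2.09 ± 0.49, adjusted p = 0.017). Without F91 replicate 3 or P173 replicate 1 or 2 it did not pass (adjusted p = 0.0606 to 0.0868), nor did it with the trend of the values with GC content taken out (adjusted p = 0.058). PC-5p-9731_453, the miR-195 relative, is described with the F140 arrays.

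The other 2 candidates that passed were lower at P173. PC-5p-195778_13 read 183, 306 and 179 units at P173, against 937, 1141 and 2158 at F91 (log2 change -2.61 ± 0.49, adjusted p = 0.0038), and the call held without any single array. It ends in a repeat of U and G and shares 15 bases with a probe named mir-466l, which itself stayed at 28 units or lower. PC-3p-52456_63 read 151, 462 and 470 units at P173, against 1095, 806 and 831 at F91 (log2 change -1.49 ± 0.40, adjusted p = 0.037). This call was lost without any of 9 arrays (adjusted p = 0.0503 to 0.118), the exceptions being F140 replicate 1 and P173 replicates 2 and 3. PC-3p-180400_14, which shares 18 bases with PC-3p-52456_63 and can be read by the same RNA, averaged 502 units at P173 and 1230 at F91 and did not pass (log2 change -1.50 ± 0.43, adjusted p = 0.053).

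Across birth, between F140 and P5, 10 candidates passed (10.1 %), 8 of them higher and 2 lower at P5. The 8 include PC-5p-225739_11, which entered the set through its P5 arrays alone. Over all probes 1.81 % passed, 0.841 % higher and 0.971 % lower, and over the named probes that passed the threshold 4.2 % did (1.66 % higher, 2.54 % lower). The median log2 change was 0.62 over the candidates, with 69 of 99 above 0, 0.00 over all probes and -0.04 over those named probes. Among the 99 are PC-3p-174854_15 and PC-5p-225739_11, in the set through P5 alone, and PC-5p-87690_34, in it through F140 alone. Further candidates, PC-5p-31052_115 among them, reached 32 units on fewer than 3 arrays outside P5. Others, such as PC-3p-93436_32 and PC-3p-228246_11, did so on fewer than 3 outside F140. The median and the count of 69 thus rest in part on values that the selection used, and they are a description. PC-3p-62940_51 had the largest change of the bright candidates. It read 19112, 14789 and 26422 units at P5, against 394, 971 and 1973 at F140 (log2 change 4.42 ± 0.67, adjusted p = 0.0068). At F91 it read 2018, 12214 and 13602 and at P173 5501, 2830 and 3331, so every P5 array was above all arrays of the other ages.

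PC-5p-51320_64, whose arrays are given above, was higher at P5 than at F140 by a log2 change of 2.92 ± 0.44 (adjusted p = 0.0068). The calls of both PC-5p-51320_64 and PC-3p-62940_51 were lost without P5 replicate 3 (adjusted p = 0.0619 for each). PC-5p-157221_17 read 7704, 4548 and 7526 units at P5, against 410, 684 and 787 at F140 (log2 change 3.41 ± 0.47, adjusted p = 0.0035). PC-5p-13703_301 read 6208, 3379 and 4956 units at P5, against 459, 903 and 626 at F140 (log2 change 2.88 ± 0.38, adjusted p = 0.0031). For both PC-5p-157221_17 and PC-5p-13703_301 the call held without any single array, with adjusted p of at most 0.0463.

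PC-5p-51939_63 read 133, 147 and 260 units at P5, against 16, 24 and 28 at F140, where it was not above background. The level at P5 was at least 5.37-fold higher (adjusted p = 0.0089). The call was lost without F140 replicate 1 or P5 replicate 3 (adjusted p = 0.054 and 0.0619). PC-5p-105598_28, higher at P173 as well, had a log2 change of 1.97 ± 0.36 (adjusted p = 0.015), which failed without any of the F140 arrays or without P5 replicate 1 or 3 (adjusted p = 0.0516 to 0.0905). PC-3p-147515_18 read 10551, 10553 and 12627 units at P5, against 3559, 2861 and 5718 at F140 (log2 change 1.53 ± 0.34, adjusted p = 0.041). Its call failed without any of 8 arrays (adjusted p = 0.0501 to 0.194), which were F91 replicate 2, F140 replicates 1 and 2, all of P5 and P173 replicates 2 and 3. As PC-5p-225739_11 passed the threshold of the set through P5 alone, its call here is a description. It read 36, 43 and 114 units at P5, against 1, 3 and 11 at F140, at least 1.75-fold higher. Its adjusted p was 0.048, and it lay between 0.0719 and 0.267 without F140 replicate 1 or 2 or any postnatal array.

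The candidates that were lower at P5 than at F140 were relatives of miR-2478 and miR-195. The P5 lambs were all twins and included the possible co-twins. With P5 replicates 1 and 2 averaged into a single value, 7 candidates passed this contrast. Without single arrays, 4 passed without F140 replicate 1, 6 without F140 replicate 2, 5 without P5 replicate 1 and 2 without P5 replicate 3. With only the F140 and P5 arrays in the fit 5 passed. Without a trend of the variance 0 candidates and 6 of all 3091 probes passed. An unadjusted limma p of at most 0.05 was then reached by 24 candidates and by 355 of all probes.

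In late gestation, between F91 and F140, 7 candidates passed (7.07 %), 4 of them higher and 3 lower at F140. The 4 include PC-3p-93436_32, which would not have entered the set without its F140 arrays, so that its call is a description. Over all probes 5.53 % passed, 3.85 % higher and 1.68 % lower, and over the named probes that passed the threshold 14.4 % did (9.68 % higher, 4.69 % lower). The median log2 change was -0.37 over the candidates and 0.07 over all probes, and 38 of 99 were above 0. These values rest in part on arrays that the selection used, as PC-5p-87690_34 entered the set through F140 alone. PC-5p-9731_453, which holds all 20 bases of a probe for a variant of miR-195 and goes on by 1 base, had the largest change of those called. miR-195 belongs to the miR-15 family, which in mice restrains the division of cardiomyocytes after birth. The candidate read 213, 107 and 205 units at F140, against 10, 5 and 8 at F91. F91 was not above background, and F140 lay at least 5.22-fold above it (adjusted p = 0.0017); the call held without any single array.

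At P5 it was again not above background, at 25, 25 and 8 units, so that P5 was lower than F140 at least 5.22-fold (adjusted p = 0.015). That call was lost without F140 replicate 1 or 3 or P5 replicate 1 or 3 (adjusted p = 0.0617 to 0.0905). At P173 it read 101, 37 and 51 units, at least 1.80-fold higher than F91 (adjusted p = 0.0077), but not without P173 replicate 1 (adjusted p = 0.0513). The arrays of F140 and of P173 stood above those of F91 and P5 without overlap.

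PC-3p-93436_32, a relative of miR-6412, read 137, 38 and 61 units at F140, against 5, 5 and 3 at F91, at least 2.13-fold higher (adjusted p = 0.036). It reached 32 units on 4 arrays, those of F140 and P173 replicate 1, so that it was in the set through its F140 arrays and its call is a description. PC-3p-213947_12, a relative of miR-27b, read 1209, 784 and 1145 units at F140, against 585, 153 and 182 at F91 (log2 change 2.02 ± 0.49, adjusted p = 0.029). PC-3p-176764_15 read 510, 163 and 183 units at F140, against 21, 71 and 90 at F91 (log2 change 2.27 ± 0.61, adjusted p = 0.045). All 3 were higher at F140 without overlap between the arrays. The call of PC-3p-93436_32 was lost without any F140 array or without F91 replicate 2 or 3 or P173 replicate 2 (adjusted p = 0.0501 to 0.159). That of PC-3p-213947_12 was lost without any F140 array or F91 replicate 2 or 3 (adjusted p = 0.0641 to 0.12), and that of PC-3p-176764_15 without any of 11 arrays, all but F91 replicate 3 (adjusted p = 0.0512 to 0.195). Markers of other cell types and of heart muscle also differed in their means between ages. miR-451 of red blood cells averaged 664 (F91), 2868 (F140), 1922 (P5) and 1332 units (P173), and miR-126 of endothelium averaged 2458 (F91), 7339 (F140), 3575 (P5) and 3800 units (P173). Of the leukocyte markers, miR-142-5p averaged 51.7 units at F140 and at most 15.3 at another age, miR-150 averaged 122 at F140 and 291 at P173, and miR-223 stayed at 23 units or lower. miR-144 of red blood cells averaged 29.7 units at F140 and 2.67 or fewer at the other ages. Of the smooth muscle markers, miR-143 averaged 2448 (F91), 4046 (F140), 3105 (P5) and 2189 units (P173), while miR-145 was higher at F91 and at P173 (3539 and 3707) than at F140 (2942). Of the heart muscle markers, miR-1 averaged 16180 units at F140 and 1285 at F91, and miR-499 averaged 8634 at F140 and 1030 at F91. miR-133a averaged 10790 at F140 and 11160 at F91, and miR-208b averaged 61.7 at F140 and at most 12.7 at another age. Their part in these results was not tested.

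The candidates that were called lower at F140 were PC-5p-51320_64, PC-3p-62940_51 and PC-5p-195778_13. PC-5p-51320_64 had a log2 change of -2.50 ± 0.44 (adjusted p = 0.0075), and this call held without any single array. PC-3p-62940_51 had a log2 change of -2.93 ± 0.67 (adjusted p = 0.023), which failed without F91 replicate 2 or 3 or F140 replicate 1 or 2 (adjusted p = 0.0692 to 0.106). PC-5p-195778_13 read 453, 146 and 592 units at F140, against 937, 1141 and 2158 at F91 (log2 change -1.96 ± 0.49, adjusted p = 0.032), and failed without F91 replicate 2 or 3, F140 replicate 1 or 2 or P5 replicate 1 (adjusted p = 0.0512 to 0.119).

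The deviations from the age means of F91 and F140 arrays with the same replicate number correlated at 0.141 to 0.282. With that number as a block, 9 candidates passed this contrast over all 12 arrays, and PC-3p-176764_15 no longer did (adjusted p = 0.051). With the F91 and F140 arrays alone, 1 candidate passed, PC-5p-9731_453. With those arrays and the block, 0 candidates and 0 of all 3091 probes passed limma's test. An unadjusted limma p of at most 0.05 was reached by 28 candidates and by 531 of all 3091 probes. With the trend on GC content taken out as well, 11 candidates passed. Over all 12 arrays, 13 passed without F91 replicate 1, and 2 passed without F91 replicate 2, without F140 replicate 1 and without F140 replicate 2.

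The GC content of the target moved with the values of the F140 arrays. Across 775 probes that averaged 100 units or more, the log2 value changed with each 10 % of GC by 0.18 ± 0.36 (F91), -0.32 ± 0.15 (F140), 0.04 ± 0.11 (P5) and 0.10 ± 0.14 (P173, SD, n = 3 each). Over the 99 candidates, the log2 change of F140 against F91 correlated with GC content at r = -0.25 (Spearman's rho = -0.16), and over the 59 candidates that averaged 100 units or more at r = 0.01 (rho = 0.03). These points share the arrays, and dim candidates lie close to background. The candidates called lower at F140 had 42.1 to 66.7 % GC and those called higher 42.9 to 52.6 %. With the GC trend taken out, 9 candidates passed this contrast and 11 passed that of P5 against F140. PC-5p-51320_64 then had a log2 change of -2.88 ± 0.50 (adjusted p = 0.0058) for F140 against F91. PC-5p-15261_264, one of the candidates rich in GC, then passed it too (log2 change 2.62 ± 0.47, adjusted p = 0.0064).

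**Figure D4:**
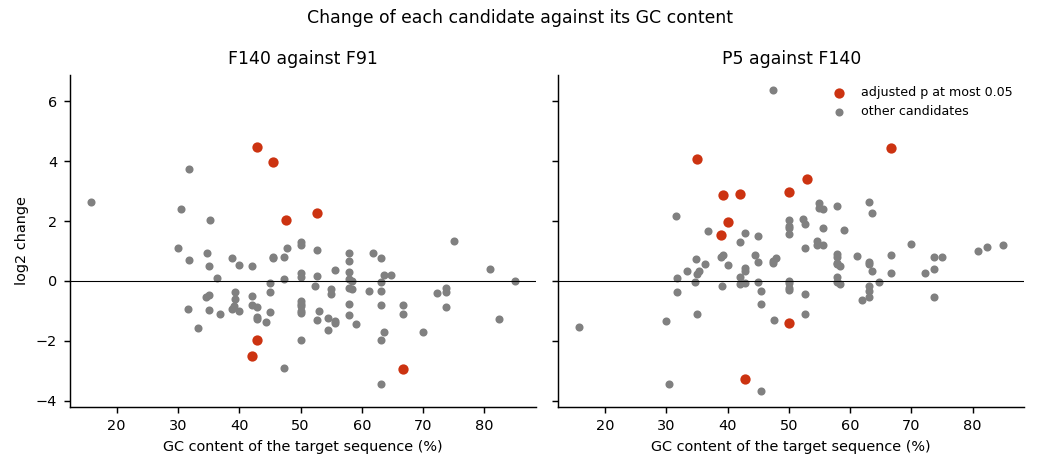
Log2 change of each of the 99 candidates (y axis) against the GC content of its target (x axis, %), for F140 against F91 (left) and P5 against F140 (right). Red points passed at an adjusted p of at most 0.05 and grey points did not; on the left r is -0.25 over all 99 points.

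Between P5 and P173, 1 candidate passed (1.01 %), and it was higher at P173. Over all probes 1.59 % passed, 0.906 % higher and 0.679 % lower, and over the named probes that passed the threshold 4.5 % did (2.54 % higher, 1.96 % lower). The median log2 change was -0.12 over the candidates and -0.16 over all probes. PC-3p-8998_497, the relative of miR-2478, read 880, 876 and 662 units at P173, against 293, 307 and 378 at P5 (log2 change 1.30 ± 0.26, adjusted p = 0.02). P5 was also lower than F140, which read 961, 827 and 802 (log2 change -1.41 ± 0.26, adjusted p = 0.015). The F91 arrays, at 718 to 867, lay among those of F140 and P173, and P5 stood apart as the single low age. The P173 call was lost without any P5 array or without P173 replicate 1 or 2 (adjusted p = 0.053 to 0.107), and the F140 call without any P5 array or without F140 replicate 1 or 2 (adjusted p = 0.0549 to 0.0885). On scanner intensities the P173 call was lost (adjusted p = 0.059). With the possible co-twins averaged, both calls were lost (adjusted p = 0.11 and 0.074).

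Several candidates with a named relative had the high or low age of that relative. The pairs given here are a selection from the 25 candidates with a relative, and how often the ages matched was not counted. The probe of miR-2478 that shares 18 bases with PC-3p-8998_497 averaged 890 (F91), 850 (F140), 302 (P5) and 880 units (P173), and its log2 change of P173 against P5 was 1.55 ± 0.30 (adjusted p = 0.017). The probe of miR-195 that lies within PC-5p-9731_453 read 98, 67 and 88 units at F140, against 2, 9 and 4 at F91. Its F140 arrays were all above those of the other ages except for P173 replicate 1, at 71 units. The probe of miR-6412 averaged 631 units at F140, against 50.7 at F91. It averaged 782 at P173, where it read 1695, 473 and 177, so that P173 was its highest age by the mean and F140 by the geometric mean. The candidate read 137, 27 and 16 at P173 and was highest at F140 by both. The same animal, P173 replicate 1, was the highest of its age with both probes.

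miR-22-3p, an exact ovine probe, changed in the same direction as its relative. It read 1370, 1677 and 1186 units at P173, against 204, 148 and 97 at F91 (log2 change 3.29 ± 0.35, adjusted p = 5.4e-05). miR-27b read 3123, 2695 and 2705 units at F140, against 1214, 855 and 612 at F91 (log2 change 1.72 ± 0.34, adjusted p = 0.012), and F91 replicate 1 was the highest of its age for miR-27b and for PC-3p-213947_12. The probe for a variant of miR-24, which with miR-27b is made from a shared cluster of genes, had a log2 change of 1.23 ± 0.25 for P173 against F91 (adjusted p = 0.0077). The probe under the name miR-24 alone does not have the seed of these candidates, so it carries another sequence and is no exact form of the variant. It stayed at 4 to 26 units and had a log2 change of 0.26 ± 0.77 (adjusted p = 0.92). The candidate PC-3p-222287_11 had one of 1.34 ± 0.39 (adjusted p = 0.059) and PC-5p-120307_24 one of 1.03 ± 0.49 (adjusted p = 0.28). PC-5p-87690_34 had entered the set through its F140 arrays alone, so that its high age is a description. It read 154, 55 and 109 units at F140 and was not above background at the other ages, at 13 to 29 units at F91, 6 to 19 at P5 and 2 to 21 at P173. Its relative of miR-374c-5p read 511, 168 and 233 at F140, and at most 73 on any other array. These pairs share bases, so that the likeness of their values is no independent measurement.

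**Figure D5:**
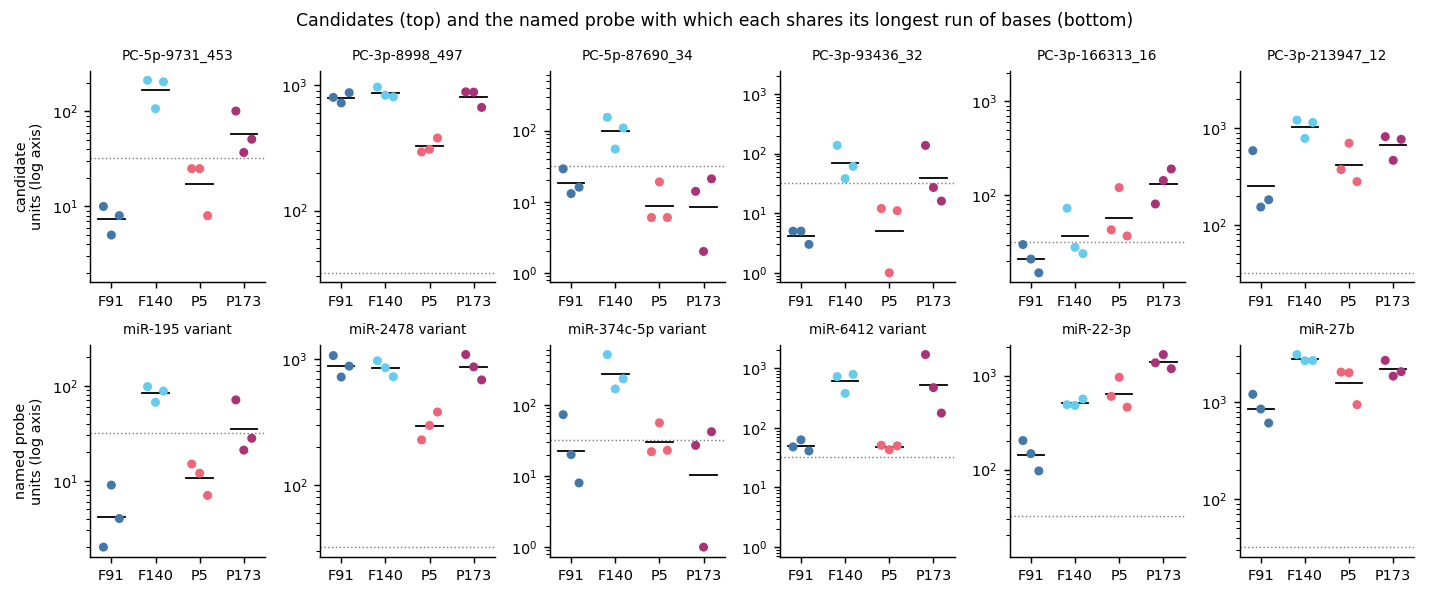
Normalised units (y axis, log) by age (x axis) of 6 candidates (top) and of the named probe with which each shares its longest run of bases (bottom), with a point for each array, a bar at the geometric mean and a dotted line at 32 units; values under 1 unit are drawn at 1. In each column the age with the highest or lowest bar is the same in both rows: F140 for miR-195, miR-374c-5p, miR-6412 and miR-27b, P173 for miR-22-3p and the low P5 for miR-2478. By the mean, P173 was the highest age of miR-6412. PC-5p-87690_34 was in the set through F140 alone, and PC-3p-93436_32 would not have entered it without its F140 arrays. The 6 columns are a selection of the candidates with a relative.

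Not every relative did so. PC-5p-45594_73, with the let-7 seed and a shared run of 16 bases with let-7f-5p, read 6960 units on F91 replicate 1 and 715 units or fewer on the other F91 arrays, where the probe of let-7f-5p read 15020, 14226 and 6427. On F91 replicate 2 the candidate was thus low and its relative was not. PC-5p-191034_14 averaged 3026 units at P5, its highest age. The miR-185 probe with its longest run read 0 to 29 units, and the exact miR-185 probe was highest at F140 (348 on average). PC-3p-1688_3537 and PC-3p-25989_141 averaged 42.8 and 36.2 units over the 12 arrays, while their miR-2285f probe read 0 to 14.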

How the data were processed

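Total RNA of 12 left ventricles was hybridised to 12 one-colour miRNA arrays, 3 for each age. The main values were those of the normalised table deposited by the authors, treated here as a score, since the authors rounded it to whole normalised units. The authors had subtracted background and normalised the arrays, by lowess as the table is named, while their methods name the CLCBIO Genomics Workbench. The scanner intensities, and the same normalised intensity values with their decimals in a second table, both as deposited by the authors, served as alternatives, and the target sequences came from the scanner files. Of 3146 rows, 55 controls were left out.

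The members and lists were chosen with earlier results of these data known. Named candidates are those past any test, the 15 brightest by mean log2 value, the 10 brightest that hold, lie in or share at least 16 bases with another probe, and 3 on each side of the threshold. PC-3p-174854_15, PC-3p-181901_14, PC-5p-50281_66, PC-5p-106928_27, PC-5p-191034_14, PC-3p-1688_3537 and PC-3p-25989_141 were named outside these lists. They were named for their 3′ end or their shared run, after their values were seen. limma 3.58.1 in R 4.3.3 fitted log2(value + 0.1) by age with a trend of the prior variance on the mean level, over all 3091 probes, and adjusted p by Benjamini-Hochberg. The fit was tested on simulated data. Shared runs were found with Python 3.11.15 and edits with edlib 1.3.9.post1. GC trends were fitted on each array over probes that averaged 100 units or more.

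Replicate numbers do not mark shared animals. The deviations of F140 and F91 arrays with the same number correlated at 0.211, 0.141 and 0.282, and those of P5 and F140 replicate 3 at 0.189. The labels state no link by number, so a block on it is an alternative fit and no feature of the design. The number of arrays limits the precision. No genome was used here, so no positions are given.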

Additional observations from a re-analysis of the deposited data

How the results depend on the processing

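Of 47 calls of a candidate in a test, 6 held under each of the 24 alternatives to the F-test or 27 to a contrast, and none changed direction. These 6 were the F-test calls of PC-5p-157221_17, PC-5p-13703_301, PC-5p-105598_28, PC-3p-27869_130, PC-5p-51939_63 and PC-5p-9731_453. The F-test called 17 candidates, 10 with values under 32 units set to 32, 6 without a trend of the variance and 8 without moderation, the test nearest to that in the methods. For P173 against F91 (12 candidates), 6 passed without the trend and 6 with only the 2 ages compared. For F140 against F91 (7), 3 passed with the floor of 32 units, 1 without the trend, 2 without moderation, 1 with only the 2 ages and 13 with the replicate block once the trend on GC was taken out. For P5 against F140 (10), 0 passed without the trend, 4 without moderation and 5 with only the 2 ages. For P173 against P5 (1), 0 passed without the trend and 0 with P5 replicates 1 and 2 averaged. In limma, 10 candidates in each had an unadjusted p of at most 0.05, as did 340 and 269 of all 3091 probes. The count of candidates for this contrast was 2 on the probes past the threshold alone, 2 on scanner intensities, which did not include the candidate of the main count, 2 with the replicate block, 2 with the GC trend taken out, 2 with both and 3 with only the 2 ages. The causes were not tested.

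Leaving out single arrays gave 12 to 25 candidates in the F-test, 8 to 15 for P173 against F91, 2 to 13 for F140 against F91, 2 to 14 for P5 against F140 and 0 to 3 for P173 against P5. The count of 0 came without any P5 array and without P173 replicate 1 or 2, and that of 3 without F91 replicate 1. Where it was 0, an unadjusted limma p of at most 0.05 was reached by 7 to 13 candidates and by 244 to 303 of all 3091 probes.

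Of all 18 correlations of same-numbered arrays (-0.221 to 0.282), 4 were over 0.1. These were the correlations of F140 with F91 and that of P5 with F140 for replicate 3 (0.189). In 11 of 36 cases, each array set against the 3 of each other age, the array correlated best with its own number. Whether the number marks a pairing at any age cannot be told from these values. With the replicate block over 4 ages, 18 candidates passed the F-test, 9 F140 against F91, 11 P173 against F91, 12 P5 against F140 and 2 P173 against P5. With the block and only the 2 ages, an alternative chosen after seeing the data, 0 candidates and 0 of all probes passed any contrast, with 28 candidates (F140 against F91), 21 (P173 against F91), 35 (P5 against F140) and 21 (P173 against P5) at an unadjusted limma p of at most 0.05. Of all 3091 probes, 531, 317, 447 and 298 had such a p, in the same order of contrasts. With the GC trend taken out as well, also chosen then, 11 candidates (F140 against F91), 9 (P173 against F91), 4 (P5 against F140) and 3 (P173 against P5) passed.

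The number of candidates was 139 at 16 units, 77 at 64 units, 130 with 1 array and 77 with 6 arrays. Overlapping candidates numbered 6 where a sequence holds another, 33 with shared runs of at least 14 bases, 28 with 16 and 17 with 18. A block for scan or slide and a match to a genome were not run, as the files used here give no scan batch and no genome was at hand.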
